A study of Homo sapiens with 35 samples.

Results

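The 6 genes described here encode parts of the caveola: the caveolins CAV1 and CAV2, the cavins PTRF, SDPR and PRKCDBP, and the ATPase EHD2. They are given here in DU145, a line of prostate cancer cells taken from a metastasis in the brain. The genes were taken by name, under the older symbols of the deposited table, and 6 of 6 were found among its 28503 genes. The current names of PTRF, SDPR and PRKCDBP are CAVIN1, CAVIN2 and CAVIN3. They count as chosen by their levels and fold changes in these same 6 libraries, which were known when the genes were proposed, so their levels and differences are a description, and the adjusted p-values given for them are no independent evidence.

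Short hairpin RNAs were used in DU145 to target luciferase as the control (shLuciferase), ZMYND8 (shZMYND8) or JARID1D (shJARID1D), and each group has 2 RNA-seq libraries. ZMYND8 reads chromatin marks, and JARID1D, listed as KDM5D, is a histone H3K4 demethylase encoded on the Y chromosome. The cells were otherwise untreated, and the other 29 of the 35 samples, made from chromatin, were not analysed here. The number of hairpins per target is not given in the labels, and separate cultures are not stated. A p-value therefore sets the difference between groups only against the spread of libraries within groups, which may be technical. The table's columns for the ZMYND8 knockdown carry the name Rac7, read here as RACK7, which an antibody label gives as a synonym of ZMYND8.

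Caveolae are small flask-shaped pits of the plasma membrane. CAV1 inserts into the inner leaflet of the membrane as an oligomer, and CAV2 joins it in hetero-oligomers. Cytosolic cavins then coat the oligomers, and EHD2 sits as a ring at the neck and holds the pit at the surface. Cells use caveolae as a reserve of membrane under stretch, for lipid traffic and to hold signalling receptors, and the genes are highest in endothelium, fat, muscle and fibroblasts. In prostate tumours CAV1 has been studied both as a membrane protein and as a protein secreted by the tumour cells themselves.

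Per library the deposited counts summed to between 22925611 and 25001300, and levels are given as CPM, the library-scaled counts after edgeR's normalization across libraries. Differences are log2 fold changes ± SE from edgeR's quasi-likelihood test over 15867 genes with Benjamini-Hochberg adjustment, and a gene was called at an adjusted p under 0.05. All 6 caveolae genes passed the filter on low counts. The targets followed their labels: ZMYND8 measured 64.7 and 52.7 CPM with shLuciferase and 35.5 and 33.2 CPM with shZMYND8, a log2 fold change of -0.77 ± 0.13 (edgeR adjusted p = 0.00491). KDM5D measured 58.1 and 61.0 CPM with shLuciferase and 19.6 and 17.9 CPM with shJARID1D, a log2 fold change of -1.67 ± 0.12 (edgeR adjusted p = 0.000831). The ZMYND8 call was lost without shZMYND8 replicate 2 (-0.73). Most calls over all genes were lost too wherever a fit kept 1 library of a knockdown group compared. A call lost in such a fit, here and below, therefore says little of the gene itself. Of the genes used to check the line, KRT8, KRT18, VIM, EPCAM and CDH1 were detected, while KLK3, the gene of prostate-specific antigen, and TP63 stayed below 1 CPM, and KRT5 was at 0 in every library.

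Markers of endothelium, fat and fibroblasts were near the floor, and so were those of smooth muscle apart from SMTN and TAGLN. Of 8 endothelial genes 7 were below 1 CPM in every library, TIE1 was at 0, and the 8 summed to 1.54 to 1.58 CPM with shLuciferase, 2.27 to 3.09 with shZMYND8 and 1.76 to 2.10 with shJARID1D. All 6 adipocyte genes were below 1 CPM, with ADIPOQ and LEP at 0, and summed to 0.085 to 0.557 CPM over the 6 libraries. Of 6 fibroblast genes 5 were below 1 CPM, with DCN at 0, and the sums were 1.5 to 2.09, 5.27 to 5.32 and 2.14 to 3.39 CPM in the same order of groups. Of 6 smooth muscle genes MYH11, CNN1 and DES were below 1 CPM, and ACTA2 lay at 0.894 to 1.80 CPM. The 6 summed to 61.3 to 101, 70.3 to 77.5 and 42.3 to 55.5 CPM, most of it SMTN and TAGLN. Of 6 immune genes 4 were below 1 CPM, with CD3E at 0, and the 6 summed to 36.2 to 57.4 CPM, most of it CD68 at 34.8 to 55.4 CPM. Some markers moved with the knockdowns. With shZMYND8 EPCAM fell (log2 fold change -1.68, edgeR adjusted p = 0.000546), while CDH1 (1.01, edgeR adjusted p = 0.0130) and COL1A1 (1.65, edgeR adjusted p = 0.0260) rose. With shJARID1D KRT8 (-0.86, edgeR adjusted p = 0.0465), KRT18 (-0.67, edgeR adjusted p = 0.0349) and TAGLN (-1.21, edgeR adjusted p = 0.0200) fell. The part of these markers in the values below was not tested.

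Promoter sequences are shown for the 4 genes with an entry in the RefSeq promoter table (GRCh38.p14). These are CAV1 and CAV2 beside each other on chromosome 7, SDPR on chromosome 2 and EHD2 on chromosome 19. Each is the 250 bases before the most upstream listed start, 5′ to 3′ on the gene's strand, with GGGCGG or its complement CCGCCC, the core of the GC box, in capitals. CAV1 lies at chr7:116524759-116525008 (+), CAV2 at chr7:116499488-116499737 (+), SDPR at chr2:191847089-191847338 (-) and EHD2 at chr19:47713172-47713421 (+).
CAV1: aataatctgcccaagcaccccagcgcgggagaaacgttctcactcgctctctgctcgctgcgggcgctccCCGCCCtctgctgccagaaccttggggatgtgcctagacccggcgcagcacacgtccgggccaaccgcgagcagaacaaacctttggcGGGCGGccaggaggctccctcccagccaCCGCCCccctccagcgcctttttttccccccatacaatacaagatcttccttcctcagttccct
CAV2: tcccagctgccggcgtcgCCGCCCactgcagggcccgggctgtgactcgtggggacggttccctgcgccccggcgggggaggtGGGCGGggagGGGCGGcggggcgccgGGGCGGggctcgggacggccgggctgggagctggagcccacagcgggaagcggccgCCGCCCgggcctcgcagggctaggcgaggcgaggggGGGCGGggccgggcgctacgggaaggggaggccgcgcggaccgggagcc
SDPR: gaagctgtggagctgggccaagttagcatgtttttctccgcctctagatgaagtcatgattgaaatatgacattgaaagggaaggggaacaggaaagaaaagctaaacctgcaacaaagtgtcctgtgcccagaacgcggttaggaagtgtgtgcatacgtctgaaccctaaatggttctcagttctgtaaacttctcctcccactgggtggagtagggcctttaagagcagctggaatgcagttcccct
EHD2: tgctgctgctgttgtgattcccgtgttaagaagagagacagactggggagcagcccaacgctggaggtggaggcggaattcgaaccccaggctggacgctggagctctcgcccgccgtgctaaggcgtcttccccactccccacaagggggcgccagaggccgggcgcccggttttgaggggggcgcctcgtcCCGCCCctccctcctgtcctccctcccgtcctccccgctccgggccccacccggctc

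The caveolin promoters hold several GC-box cores, 3 in CAV1 and 6 in CAV2, and EHD2 holds 1. In SDPR these letters did not occur on either strand. Over all 27305 promoter windows of this length, 42.2% hold GGGCGG on one of the strands. GC content was 63.6% in CAV1, 83.2% in CAV2, 69.6% in EHD2 and 48.0% in SDPR, against a median of 57.6%. CG dinucleotides numbered 18 in CAV1, 35 in CAV2, 20 in EHD2 and 4 in SDPR, against a median of 10. TATAAA, found in 11.2% of all windows, and CCAAT, found in 33.0%, occurred in none of the 4 windows on either strand. These matches describe letters in the window and say nothing of binding. CAV1 has 3 listed starts and CAV2 has 2, and which start DU145 uses was not examined. PTRF and PRKCDBP are named without a sequence.

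The caveolae genes called lower in edgeR were not the same in the 2 knockdowns. With shZMYND8 the 3 cavins fell, and neither caveolin was called in edgeR, DESeq2 or limma. With shJARID1D the 2 caveolins fell, and no cavin was called in limma or in the main edgeR fit, which has no replicate block. DESeq2 also called PTRF and SDPR lower with shJARID1D. So did edgeR with the replicate number as a block (edgeR adjusted p = 0.00324 and 0.00575). Their folds of 1.5 and 1.56 were close to the 1.62 of each caveolin, so their absence from the main edgeR calls rests on the threshold and the model. EHD2, the neck protein, was called with neither knockdown in these tools. The next paragraphs give the values by role, and the plot of CPM shows each library.

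**Figure D1:**
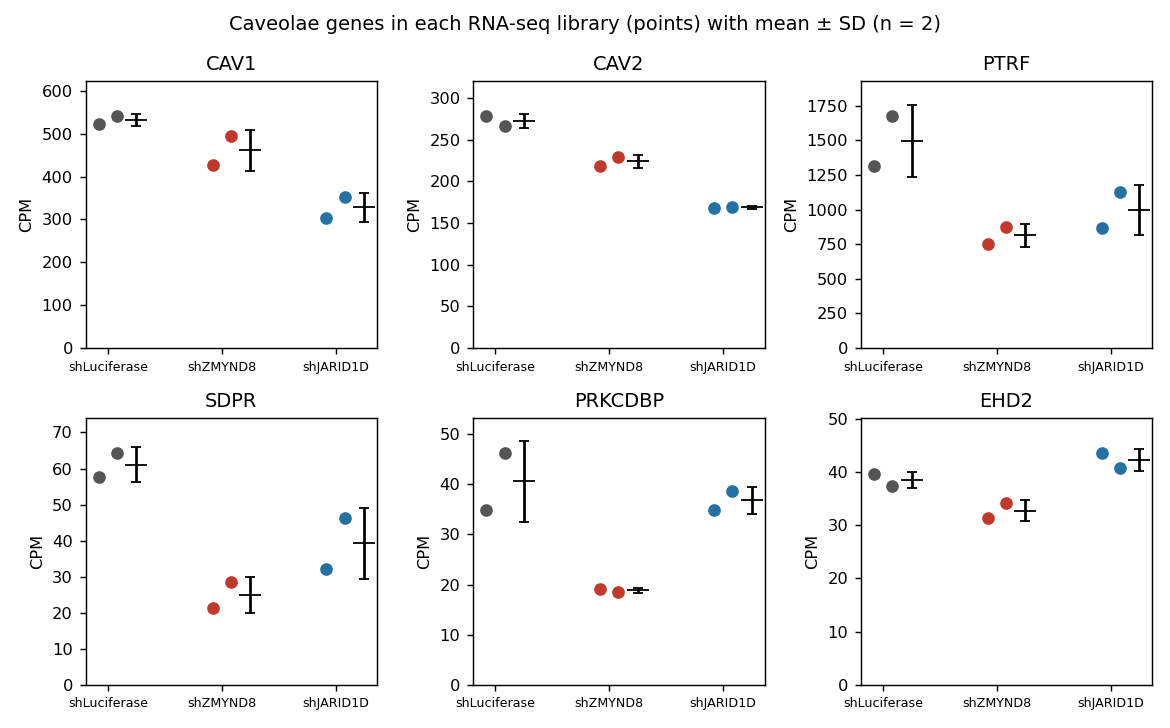
Points are the 6 caveolae genes in each of the 6 libraries (y axis, CPM, starting at 0; x axis, group), and the bar beside each pair is the mean ± SD of 2 libraries. CAV1 and CAV2 are lowest with shJARID1D, while SDPR and PRKCDBP are lowest with shZMYND8.

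CAV1, the principal coat protein without which caveolae do not form in non-muscle cells, measured 522 and 541 CPM with shLuciferase, 428 and 495 CPM with shZMYND8, and 304 and 352 CPM with shJARID1D. The groups did not overlap, and the order was control, ZMYND8 knockdown, JARID1D knockdown. With shJARID1D CAV1 fell 1.62-fold, a log2 fold change of -0.70 ± 0.13 (edgeR adjusted p = 0.0197). With shZMYND8 its log2 fold change was -0.21 ± 0.13 with a 95% interval of -0.49 to 0.08 (edgeR adjusted p = 0.314). In these bulk libraries fewer cells expressing a gene and less RNA per cell cannot be told apart.

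CAV2, which needs CAV1 to leave the Golgi and reach the membrane, followed the same order. Its level was 279 and 267 CPM with shLuciferase, 218 and 230 CPM with shZMYND8, and 168 and 170 CPM with shJARID1D. No library of one group reached those of another. With shJARID1D CAV2 fell 1.62-fold, a log2 fold change of -0.69 ± 0.11 (edgeR adjusted p = 0.0139). With shZMYND8 the log2 fold change was -0.28 ± 0.11 with an interval of -0.53 to -0.04, which did not pass (edgeR adjusted p = 0.110). Both caveolin calls were lost without either shJARID1D library, as were most calls over all genes with shJARID1D. The values changed less: for CAV1 they were -0.59 without replicate 1 and -0.80 without replicate 2, and for CAV2 -0.68 and -0.70. CAV1 also missed the threshold without the filter on low counts (edgeR adjusted p = 0.0529).

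PTRF, or cavin-1, trimerizes and recruits the other cavins to CAV1. It measured 1311 and 1676 CPM with shLuciferase, 753 and 873 CPM with shZMYND8, and 870 and 1126 CPM with shJARID1D. Both knockdown groups lay below the control libraries, and the knockdown groups overlapped each other at the shZMYND8 replicate 2 value. With shZMYND8 PTRF fell 1.84-fold, a log2 fold change of -0.88 ± 0.17 (edgeR adjusted p = 0.00769). This call was lost without shZMYND8 replicate 1 (-0.78, edgeR adjusted p = 0.0865). With shJARID1D its log2 fold change was -0.58 ± 0.17 with an interval of -0.95 to -0.21, which did not pass (edgeR adjusted p = 0.0718), although it passed in DESeq2 (adjusted p = 0.00689) and in edgeR without shLuciferase replicate 1 (-0.75, adjusted p = 0.0177).

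SDPR, or cavin-2, binds phosphatidylserine and shapes the caveolar membrane. Its level was 57.6 and 64.4 CPM with shLuciferase, 21.4 and 28.5 CPM with shZMYND8, and 32.2 and 46.2 CPM with shJARID1D. The order was control, JARID1D knockdown, ZMYND8 knockdown, with no overlap. It had the largest difference of the 6 genes: with shZMYND8 it fell 2.45-fold, a log2 fold change of -1.29 ± 0.19 (edgeR adjusted p = 0.00245). With shJARID1D the log2 fold change was -0.64 ± 0.19 with an interval of -1.06 to -0.22, which did not pass (edgeR adjusted p = 0.0773). SDPR with shJARID1D passed in DESeq2 (adjusted p = 0.0179) and in edgeR without shLuciferase replicate 1 (-0.72, adjusted p = 0.0436). It measured -0.40 without shJARID1D replicate 1 (edgeR adjusted p = 0.433) and -0.92 without shJARID1D replicate 2, and PTRF -0.41 without shJARID1D replicate 1 (edgeR adjusted p = 0.413).

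PRKCDBP, or cavin-3, is a cavin that also binds protein kinase C delta. It measured 34.9 and 46.4 CPM with shLuciferase, 19.2 and 18.5 CPM with shZMYND8, and 34.9 and 38.7 CPM with shJARID1D. The shJARID1D libraries overlapped the control libraries, and the shZMYND8 libraries lay below all the others. With shZMYND8 PRKCDBP fell 2.15-fold, a log2 fold change of -1.11 ± 0.15 (edgeR adjusted p = 0.00184). With shJARID1D it was -0.14 ± 0.15 with an interval of -0.48 to 0.19 (edgeR adjusted p = 0.608), and the sign turned to 0.073 without shLuciferase replicate 2. Without any 1 library, SDPR and PRKCDBP remained called with shZMYND8.

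EHD2, the dynamin-related ATPase at the caveolar neck, varied least. It measured 39.6 and 37.4 CPM with shLuciferase, 31.3 and 34.2 CPM with shZMYND8, and 43.7 and 40.8 CPM with shJARID1D. The groups did not overlap, with shJARID1D highest and shZMYND8 lowest. The log2 fold change was -0.23 ± 0.12 with shZMYND8 (interval -0.50 to 0.03, edgeR adjusted p = 0.217) and 0.13 ± 0.12 with shJARID1D (interval -0.13 to 0.40, edgeR adjusted p = 0.537).

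Counted over the 6 genes, 3 were called lower and 0 higher with shZMYND8, where 16.2% of all genes tested were called in edgeR and 7.34% were called lower and 8.89% higher. All 6 had both shZMYND8 libraries below both control libraries, as had 27.8% of all genes tested, and 57.8% of all genes showed no overlap in either direction. With shJARID1D 2 were called lower and 0 higher, where 5.75% of all genes were called and 2.79% were called lower and 2.96% higher. Here 5 of the 6 did not overlap the control, against 51.9% of all genes. Of these, 4 lay below it, against 24.9% of all genes, and EHD2 lay above it. The median log2 fold change of the 6 genes was -0.58 with shZMYND8 and -0.61 with shJARID1D, and that of all genes was -0.01 and 0.00. Since the genes were proposed from these libraries, nothing is read from these shares. Both comparisons share the control libraries.

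**Figure D2:**
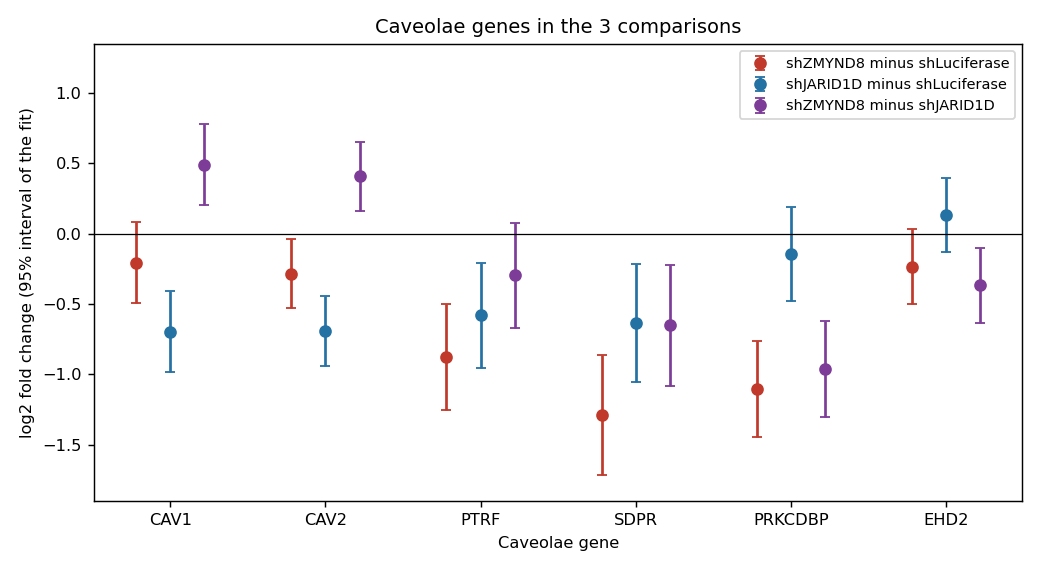
Log2 fold changes (y axis) of the 6 caveolae genes (x axis) in the 3 comparisons, with the 95% interval of the edgeR fit over all libraries. Against the control the lowest values are those of the cavins with shZMYND8, and in the direct comparison CAV1 and CAV2 lie above 0 while the other 4 lie below.

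A direct comparison of the knockdowns tested the difference between them. The control entered it through the filter on low counts, the scaling factors and the estimate of the spread. With shZMYND8 compared to shJARID1D, CAV1 was 1.40-fold higher (log2 fold change 0.49 ± 0.13, edgeR adjusted p = 0.0315) and CAV2 was 1.33-fold higher (0.41 ± 0.11, edgeR adjusted p = 0.0345). PRKCDBP was 1.95-fold lower with shZMYND8 (-0.96 ± 0.15, edgeR adjusted p = 0.00423) and SDPR 1.57-fold lower (-0.65 ± 0.19, edgeR adjusted p = 0.0459). PTRF did not pass, at -0.30 ± 0.17 with an interval of -0.67 to 0.08 (edgeR adjusted p = 0.255), and neither did EHD2 pass, at -0.37 ± 0.12 with an interval of -0.63 to -0.10 (edgeR adjusted p = 0.0639). So 2 of the 6 genes were called higher and 2 lower, where 15.7% of all genes were called, 8.67% higher and 7.02% lower. The libraries of the 2 knockdowns did not overlap for 5 of the 6 genes, against 65.4% of all genes.

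These calls rest on few libraries, and most calls over all genes were lost when any 1 of the 4 knockdown libraries was left out. The CAV1 and CAV2 calls between the knockdowns were among those lost each time. Their log2 fold changes then were 0.38 to 0.59 for CAV1 and 0.37 to 0.44 for CAV2. SDPR was lost without shZMYND8 replicate 1, shZMYND8 replicate 2 or shJARID1D replicate 2 (-0.46, -0.87 and -0.38), and PRKCDBP without shZMYND8 replicate 2 (-0.94). EHD2 was called lower with shZMYND8 with only the 2 knockdowns in the fit (edgeR adjusted p = 0.0254) and with library totals as the scaling (edgeR adjusted p = 0.0463). It was also called without either shLuciferase library (-0.37 each time).

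Ratios of 2 genes within a library need no scaling between libraries. The CAV1 to CAV2 ratio of CPM was 1.87 and 2.03 with shLuciferase, 1.96 and 2.15 with shZMYND8, and 1.81 and 2.08 with shJARID1D. These groups overlapped. The PTRF to CAV1 ratio was 2.51 and 3.09 with shLuciferase, 1.76 and 1.76 with shZMYND8, and 2.86 and 3.20 with shJARID1D. It was lowest in the ZMYND8 knockdown, and the JARID1D knockdown overlapped the control.

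The SDPR to CAV1 ratio was 0.110 and 0.119 with shLuciferase, 0.0501 and 0.0576 with shZMYND8, and 0.106 and 0.131 with shJARID1D. The PRKCDBP to CAV1 ratio was 0.0669 and 0.0856 with shLuciferase, 0.0449 and 0.0375 with shZMYND8, and 0.115 and 0.110 with shJARID1D. Both cavins were thus lowest relative to CAV1 with shZMYND8, and PRKCDBP was highest relative to CAV1 with shJARID1D. The EHD2 to CAV1 ratio was 0.0758 and 0.0692 with shLuciferase, 0.0733 and 0.0691 with shZMYND8, and 0.144 and 0.116 with shJARID1D, where it was above all other libraries.

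**Figure D3:**
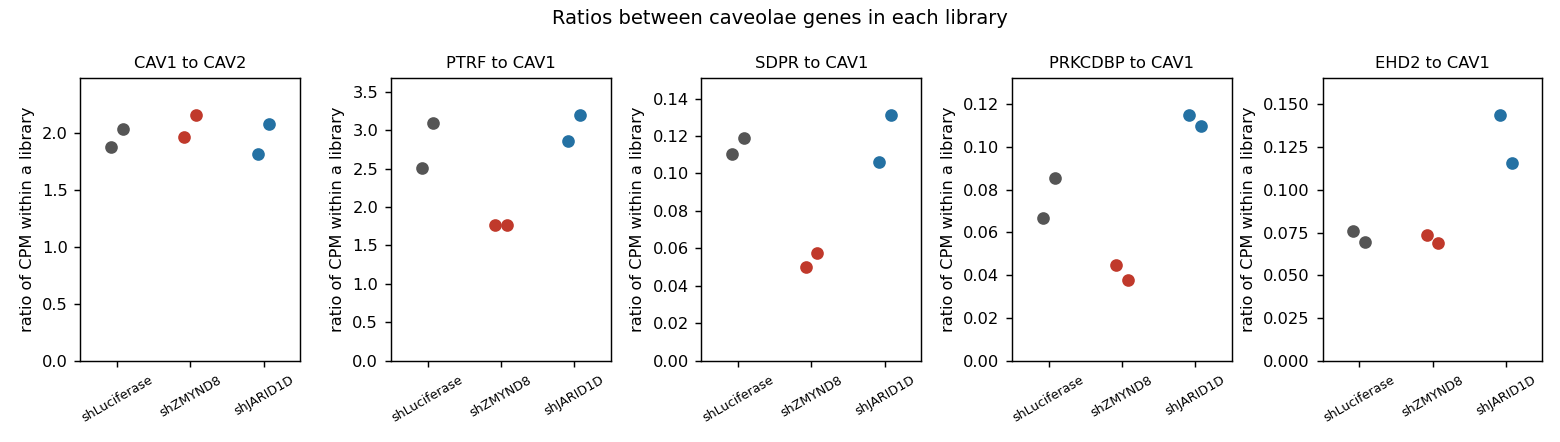
Ratio of 2 genes' CPM within each library (y axis, starting at 0; each point 1 library; x axis, group). The CAV1 to CAV2 ratio overlaps between groups, the 3 cavin to CAV1 ratios are lowest with shZMYND8, and EHD2 to CAV1 is highest with shJARID1D.

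Among the cavins the proportions also moved. The PTRF to SDPR ratio was 22.8 and 26.0 with shLuciferase, 35.2 and 30.7 with shZMYND8, and 27 and 24.4 with shJARID1D. It was highest in the ZMYND8 knockdown, where SDPR had the larger fold change. The PTRF to PRKCDBP ratio was 37.6 and 36.2 with shLuciferase, 39.2 and 47.1 with shZMYND8, and 25 and 29.1 with shJARID1D. It was lowest in the JARID1D knockdown. No gene length enters these ratios, so they compare libraries and not the amounts of 2 transcripts in a cell.

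Across the 6 libraries, which are 3 groups of 2, log2 CPM of CAV1 and CAV2 had a Pearson r of 0.96, and PTRF and SDPR one of 0.97. PRKCDBP had an r of 0.86 with SDPR, 0.81 with PTRF and -0.09 with CAV1, and EHD2 had an r of 0.76 with PRKCDBP and -0.51 with CAV1. These values describe libraries that share groups and are given without a test. Out of 11477 genes whose mean reached 5 CPM, those most like CAV1 over the 6 libraries were ITPKB, KCTD14 and TCP11L1, and those most like CAV2 were CEP68, FOXN3 and TAF9. For PTRF they were TACC3, CCT2 and FAM53B, for SDPR SPAG5, SHCBP1 and KDM1A, for PRKCDBP CD70, FZD2 and PRDX2, and for EHD2 RECQL, KCNH1 and COPB2. With 6 libraries and this many genes, r rounded to 0.99 or more for each of these 18 genes.

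A list of the wider caveola machinery was set beside the 6 genes. Of 20 accessory genes, which include the muscle forms CAV3 and MURC, the membrane-bending PACSINs, the dynamins that cut caveolae from the membrane, flotillins and the kinases that phosphorylate CAV1, 19 were tested and CAV3 was too low. With shZMYND8 2 rose and 0 fell in edgeR, where 8.89% of all genes were called higher and 7.34% lower, 4 had an unadjusted p under 0.05, and the list median was 0.01. DESeq2 and limma each called 1 lower, where of all 15867 genes DESeq2 called 1325 lower and limma 1115. The share of all genes at an unadjusted p under 0.05 was not computed, so nothing is read from such counts, here or below. YES1, a kinase of the Src family, lay next to the threshold at -0.42 (edgeR adjusted p = 0.0501). ABL1, a kinase that links caveolae to actin fibres, rose from 135 and 152 CPM to 234 and 232 CPM (log2 fold change 0.70 ± 0.12, edgeR adjusted p = 0.00390). EHD1, a relative of EHD2 that acts on recycling endosomes, rose from 73.2 and 110 CPM to 148 and 168 CPM (0.78 ± 0.19, edgeR adjusted p = 0.0239), a call lost without shZMYND8 replicate 1 or replicate 2 (edgeR adjusted p = 0.0869 and 0.154). PACSIN2, which binds the neck of caveolae, did not pass, at -0.18 with shZMYND8 and 0.03 with shJARID1D.

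With shJARID1D 1 accessory gene rose and 0 fell in edgeR, where 2.96% of all genes were called higher and 2.79% lower, with a median of -0.01. Here 6 had an unadjusted p under 0.05, DESeq2 called 2 lower and limma 0 lower, against 774 and 414 of all 15867 genes. The gene that rose was DNM3, a dynamin best known from neurons, at 1.66 and 1.46 CPM with shLuciferase and 3.77 and 3.43 CPM with shJARID1D (log2 fold change 1.2 ± 0.26, edgeR adjusted p = 0.0311). Leaving out shLuciferase replicate 2 or any 1 knockdown library ended that call (edgeR adjusted p = 0.0622 to 0.191). Between the knockdowns EHD1, ABL2 and ABL1 were higher with shZMYND8 in edgeR, where 8.67% of all genes were called higher and 7.02% lower. In edgeR, DESeq2 or limma 0 accessory genes were lower, where DESeq2 called 1150 and limma 1092 of all 15867 genes lower. In edgeR 7 had an unadjusted p under 0.05. The EHD1, ABL2 and ABL1 calls were each lost without at least 3 of the 4 knockdown libraries in turn.

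Clathrin-coated pits are the main other endocytic coat, and 30 genes of their coat and adaptors were tested. With shZMYND8 2 rose and 0 fell in edgeR, against 8.89% and 7.34% of all genes, with a median of 0.02. In edgeR 4 had an unadjusted p under 0.05. DESeq2 called 2 lower and limma 0 lower, against 1325 and 1115 of all 15867 genes. NECAP1, an adaptor-binding protein, rose from 28.1 and 25.7 CPM to 44.2 and 45.1 CPM (log2 fold change 0.73 ± 0.13, edgeR adjusted p = 0.00504). HIP1R, which ties coats to actin, measured 0.57 ± 0.17 (edgeR adjusted p = 0.0441), and was lost without any 1 library other than shLuciferase replicate 2. With shJARID1D 0 of 30 were called in edgeR, where 2.96% of all genes were called higher and 2.79% lower, and the list median was -0.07. Here 8 had an unadjusted p under 0.05. DESeq2 called 1 higher and 2 lower, against 585 and 774 of all 15867 genes. Limma called 0, against 405 higher and 414 lower. Between the knockdowns NECAP1 and HIP1 were higher with shZMYND8 and FCHO1 was lower, where 8.67% of all genes were called higher and 7.02% lower. The NECAP1, HIP1 and FCHO1 calls were lost without any 1 of the 4 knockdown libraries.

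Receptors and signalling proteins reported to sit in caveolae or bind CAV1 were the next list. Of 25 such genes 23 were tested, and NOS3 and CD36 were too low. With shZMYND8 6 rose in edgeR, IGF1R, TGFBR2, SCARB1, EGFR, GJA1 and INSR, and 0 fell, where 8.89% of all genes were called higher and 7.34% lower. DESeq2 and limma also called 0 lower, against 1325 and 1115 of all 15867 genes. In edgeR 11 of the 23 had an unadjusted p under 0.05. The list median was 0.02, against -0.01 over all genes, and 11 of the 23 values were below 0. They ran from -0.38 to 1.93, the highest from a gene below 1 CPM in every library that was not called. IGF1R, the receptor of insulin-like growth factors, rose from 84.1 and 75.9 CPM to 188 and 211 CPM (log2 fold change 1.32 ± 0.13, edgeR adjusted p = 0.000534). TGFBR2, the type II TGF-beta receptor, rose by 0.89 ± 0.13 (edgeR adjusted p = 0.00243), and SCARB1, the receptor of high-density lipoprotein, by 0.77 ± 0.12 (edgeR adjusted p = 0.00264). These 3 remained called without any 1 library, and the count of 6 fell to 3 without shZMYND8 replicate 2.

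With shJARID1D 0 of the 23 rose and 2 fell in edgeR, against 2.96% and 2.79% of all genes, with a median of -0.06. In edgeR 6 had an unadjusted p under 0.05. DESeq2 called 0 higher and 4 lower, against 585 and 774 of all 15867 genes. Limma called 0 higher and 1 lower, against 405 and 414. KCNMA1, a calcium-activated potassium channel, had a log2 fold change of -0.62 ± 0.12 (edgeR adjusted p = 0.0243), and BSG, the glycoprotein basigin, one of -0.62 ± 0.15 (edgeR adjusted p = 0.0482). Both were lost without either shJARID1D library, as were most calls over all genes. BSG was also lost without shLuciferase replicate 2 (-0.36, edgeR adjusted p = 0.103), without either shZMYND8 library, in limma, and under 5 other settings of scaling, filter and samples at the same threshold. Between the knockdowns 8 of the 23 were higher with shZMYND8 and 0 lower in edgeR, DESeq2 and limma alike, with a median of 0.23 and 9 at an unadjusted p under 0.05 in edgeR. Over all genes 8.67% were called higher and 7.02% lower in edgeR. Of all 15867 genes DESeq2 called 1419 higher and 1150 lower, and limma 1375 higher and 1092 lower. EGFR, the epidermal growth factor receptor, measured 161 and 160 CPM with shLuciferase, 225 and 270 CPM with shZMYND8, and 114 and 119 CPM with shJARID1D, and its difference between the knockdowns was 1.09 ± 0.13 (edgeR adjusted p = 0.00101). The count of 8 fell to 3 without shZMYND8 replicate 2 and to 4 without either shJARID1D library.

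CAV2 and CAV1 are neighbours, so the genes around them were set beside them. By RefSeq order the protein-coding genes along chromosome 7 are MDFIC, TFEC, TES, CAV2, CAV1, MET, CAPZA2 and ST7. With shJARID1D MET, which encodes the receptor of hepatocyte growth factor and follows CAV1, fell with the caveolins, from 509 and 578 CPM to 269 and 294 CPM (log2 fold change -0.95 ± 0.14, edgeR adjusted p = 0.00973). The MET call was lost without shJARID1D replicate 1 (-0.89) or replicate 2 (-1.01), as were most calls over all genes. TES, on the other side of CAV2, measured 0.23 ± 0.11 and did not pass, nor did CAPZA2 beyond MET at -0.03 ± 0.15. CAV2, CAV1 and MET, the 3 genes called lower here, lie side by side, where 2.79% of all genes were called lower. The 2 caveolins are neighbours that came with the chosen list, so nothing about the region is read from this.

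With shZMYND8 the same stretch looked different. MDFIC fell (log2 fold change -0.74 ± 0.14, edgeR adjusted p = 0.00711), as did CAPZA2 (-0.61 ± 0.15, edgeR adjusted p = 0.0234), while TES (-0.09 ± 0.11), MET (0.22 ± 0.14) and ST7 (0.29 ± 0.13) did not pass. MDFIC and CAPZA2 were each lost without either shZMYND8 library (edgeR adjusted p = 0.0503 to 0.158). Between the knockdowns MET was 1.17 ± 0.14 higher with shZMYND8 (edgeR adjusted p = 0.00120), the same direction as CAV1 and CAV2.

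**Figure D4:**
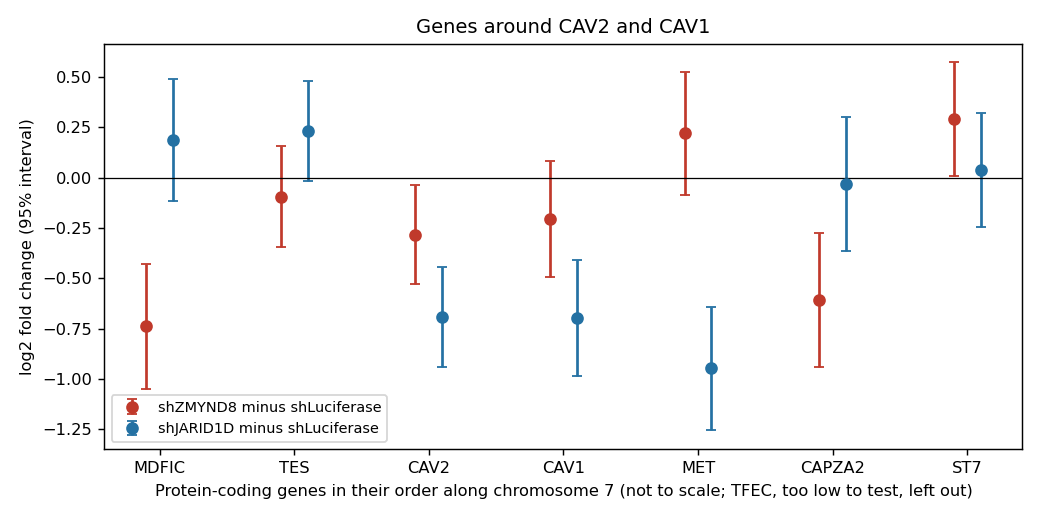
Log2 fold change against shLuciferase with its 95% interval (y axis) for the tested genes around CAV2 and CAV1 in their order along chromosome 7 (x axis, not to scale). With shJARID1D CAV2, CAV1 and MET are low side by side, and with shZMYND8 the lowest values are those of MDFIC and CAPZA2.

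Around the cavins and EHD2 no tested neighbour was called lower in edgeR with either knockdown. Over the 30 genes within 3 places of any of the 6, 25 were tested, and with shZMYND8 6 were called higher and 2 lower, the latter being MDFIC and CAPZA2, where 8.89% of all genes were called higher and 7.34% lower. The nearest tested genes to PTRF, STAT3 and ATP6V0A1, measured 0.30 and 0.24 with shZMYND8 and were not called, and STAT5A, next to STAT3, rose by 1.06 ± 0.16 (edgeR adjusted p = 0.00263). Beside SDPR, NABP1 measured 0.35 and was not called, and STAT4 (0.98) and SLC39A10 (0.52) rose. Beside PRKCDBP, SMPD1, the lysosomal acid sphingomyelinase, rose by 1.06 ± 0.19 (edgeR adjusted p = 0.00578). Beside EHD2, GLTSCR2 rose by 0.68 ± 0.12 (edgeR adjusted p = 0.00559) and GLTSCR1 measured 1.08 without passing (edgeR adjusted p = 0.0617). Leaving out a single shZMYND8 library ended the calls of STAT4, SLC39A10, SMPD1 and GLTSCR2, while that of STAT5A remained. With shJARID1D 3 of the 25 neighbours were called higher, STAT5A (0.85), STAT4 (0.89) and SLC39A10 (0.85), and 1 lower, MET, where 2.96% and 2.79% of all genes were. Each was lost without shJARID1D replicate 1 or replicate 2, as were most calls over all genes.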

How the data were processed

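The authors deposited 1 table of gene counts for the 6 RNA-seq libraries. The unit of these deposited values is the expected count, an estimate of fragments per gene, with 18 variance columns that were not used. Cuffdiff, TopHat2 2.0.12, edgeR 3.12.0, Bowtie 1.1.2 and build hg19 are named, without role, in the submitters' processing notes. Annotation, poly(A) selection and strand handling: not given in the sources used here. Values of overlapping or antisense genes are therefore uncertain. A single fragment is worth 0.881 to 1.16 in the deposited counts, a scaling kept as deposited.

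Counts were rounded, 60 genes marked as not quantified were left out, and edgeR 4.0.16 (filterByExpr, TMM factors of 0.966 to 1.057, quasi-likelihood F test, 1 fit over 3 groups, 3 residual degrees of freedom) tested 15867 of 28443 genes. SE is the log2 fold change over the square root of F, and intervals are at 95%. Replicates differed by more than sampling noise, most so in the control: the mean chi-square per gene was 33.8 for shLuciferase, 13.9 for shZMYND8 and 12.1 for shJARID1D. The fit pools the spread of the 3 groups, so the control libraries also enter the comparison of the knockdowns. Alternatives were other scalings and filters, DESeq2 1.42.0, limma 3.58.1, a replicate block, other samples in the fit, and each library left out.

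The members and gene lists were chosen with earlier results of these data known. Named genes were the 6 members, the 2 targets, up to 3 called genes of smallest adjusted p per list and comparison, neighbours that were called or nearest to a member, and the 3 genes most like each member by Pearson r. EGFR, GJA1 and INSR with shZMYND8, the markers that moved, and the genes named for not passing or being too low, were added after their values were seen. Promoters came from RefSeq (GRCh38.p14), whose gene order was also used. A marker and a neighbouring gene are not reported here. Levels are not compared between genes, since no transcript length was used.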

Additional observations from a re-analysis of the deposited data

How the results depend on the processing

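Of 324 values of the 6 genes over 18 alternatives, 283 kept their direction and side of the threshold, 28 lost a call, 12 gained one and 1 changed sign, PRKCDBP with shJARID1D, which ranged from -0.33 to 0.073 with 1 library left out and was above 0 without shLuciferase replicate 2. The log2 fold change of KDM5D with shZMYND8, not called, ranged from -0.11 to 0.0053 and was above 0 without shZMYND8 replicate 1. With shZMYND8 the count of caveolae genes called was 3 in each alternative that kept all libraries and 2 to 3 with 1 library left out. With shJARID1D the count of 2 became 1 without the filter on low counts, 4 in DESeq2 and 0 at a threshold of 0.01, and 0 to 4 with 1 library left out, with 0 without either shJARID1D library and 4 without shLuciferase replicate 1. Between the knockdowns the count of 4 became 1 without the filter and 1 at a threshold of 0.01, and 0 to 5 with 1 library left out. SDPR missed the threshold there in limma (adjusted p = 0.0518), and CAV2 with library totals as the scaling (edgeR adjusted p = 0.0509). The labels name no pairing of same-numbered libraries. Deviations of these libraries correlated weakly, at 0.0925, 0.17 and 0.0969, all above 0, so pairing is not settled by these values. With the replicate number as a block the counts were 3, 4 (PTRF and SDPR added with shJARID1D) and 6 (PTRF and EHD2 added between the knockdowns). Where a group kept 1 library, that library was assumed to vary like the other groups. Why these values moved was not tested.

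Over the alternatives, in the order shZMYND8, shJARID1D and between the knockdowns, accessory genes called higher ranged from 1 to 2, 0 to 1 and 0 to 4 and lower from 0 to 3, 0 to 3 and 0 to 1. Clathrin genes ranged from 1 to 3, 0 to 4 and 0 to 5 higher and from 0 to 3 lower in each. Receptors ranged from 3 to 8, 0 to 0 and 3 to 8 higher and from 0 to 2, 0 to 4 and 0 to 0 lower. Over all genes edgeR called 2574, 912 and 2490 in the 3 comparisons. Without the filter these were 1805, 204 and 1560, at a threshold of 0.01 they were 1002, 77 and 761, with the block 3699, 2073 and 3785, and with only the 2 groups compared in the fit 1993, 449 and 4252. With 1 library left out they ranged from 642 to 3222, from 16 to 2145 and from 551 to 4191. The share of calls that were higher with shJARID1D moved from 51.4% to 70.7% with library totals as the scaling and to 61.7% with upper quartile factors, and between the knockdowns from 55.3% to 45.0% with library totals.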

Other observations

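The summed CPM of the 6 caveolae genes was 2244 and 2632 with shLuciferase, 1471 and 1678 with shZMYND8, and 1453 and 1774 with shJARID1D. Most of these counts were those of PTRF, with no scaling for transcript length. Both knockdowns lay below the control and overlapped each other, although in the main edgeR fit different genes of the 6 were called in each. DESeq2 called PTRF and SDPR lower with shJARID1D as well. No test was run on this sum.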
